A study of Mus musculus with 34 samples.

Results

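DNA replication and mitosis genes, 50 of the 21631 protein-coding genes measured on the autosomes and the X, were followed across 4 chromatin targets of this mouse data set (H3K4me3, CTCF, H3K27ac and Pol2S2P). The 50 were chosen by name, as genes that act in copying the genome or in dividing it. No value in these files was used as a criterion, but earlier results of these data were known when the genes were chosen. For each gene, reads were summed over the 1 kb bins at the gene start and, separately, over the bins of the gene interior. For this description the genes were grouped by role and, more coarsely, into 23 S phase genes (licensing, fork, nucleotide supply, activating E2F factors, cyclin E and its kinase) and 27 mitotic genes (mitotic cyclins and kinases, spindle checkpoint, spindle, cytokinesis and chromosome structure). The genes lie on 16 chromosomes and span from 2974 to 79490 bases.

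Proliferating cells switch these genes on in successive waves. E2F factors, held back by the retinoblastoma proteins until a cell commits to division, activate the S phase genes, and a later wave driven by FOXM1 and B-MYB activates the mitotic genes. The promoters of the later genes often carry a cell cycle genes homology region (CHR), through which a repressor complex acts in resting cells, together with CCAAT boxes bound by NF-Y. Myoblasts divide until they exit the cell cycle to differentiate, and much of the set is then silenced.

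The cells were C2C12, an established mouse myoblast line. Chromatin was read by chromatin integration labelling, in which antibodies carry DNA that a transposase inserts next to the bound target. Dual staining means that 2 targets were labelled in the same cells. One dual staining took H3K4me3, a histone mark found at active promoters, and CTCF, the insulator protein, in 10000 and in 1000 cells. The other took H3K27ac, the mark of active promoters and enhancers, and Pol2S2P, the serine 2 phosphorylated form of RNA polymerase II found on elongating complexes, in 1000 and in 100 cells. Each of these 8 groups had 3 libraries. CTCF alone in 10000 cells and Pol2S2P alone in 1000 cells were single stainings with 2 libraries each. The labels do not say that libraries came from separate cultures, so the tests measure the spread between these libraries, which may be technical. The libraries held from 719766 counts (H3K4me3, 1000 cells) to 6653298 counts (CTCF, single staining). Each library pools many cells, so a lower level in every cell and a signal in fewer cells cannot be told apart.

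Levels are given as density, the count per 1 kb bin divided by the mean count per bin of that library, so that 1 is the genome mean. RefSeq promoters (GRCm38.p6) gave the start of 41 of the 50 genes, and of 17274 of all 21631. The start window covered 2 kb on either side of the most upstream listed start. Where no start was listed (Gmnn, Mcm4, Foxm1, Ccna2, Ccne2, Cdc25c, Aurkb, Kif20a and Tpx2), both gene ends were summed, so that 1 start was averaged over 10 bins. The interior, all bins outside these windows, existed for 46 genes. It was only 1 to 3 bins long in 9 of them, and was missing in Cdt1, Pcna, Cdc20 and Ube2c. In 11 genes the start window shared bins with that of a neighbour (Cdc45 with Ufd1, Aurka with Cstf1, Tk1 with Afmid, Mcm7 with Ap4m1, Mcm2 with Tpra1, Mcm4 with Prkdc, Ccna2 with Exosc9, Prc1 with Vps33b, Anln with 9530077C05Rik, Foxm1 with Rhno1 and Tex52, Kif20a with Brd8 and Cdc23), and the reads of the pair cannot be separated there. In 14 genes the start window touched the body of another gene, so that polymerase or marks of that gene were counted too. Besides neighbours already named, these were Pcna (in Cds2), Cdk2 (Pmel), Ube2c (Dnttip1), Ccne2 (Ints8), Ccna2 (Bbs7) and Prc1 (Rccd1).

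Promoter letters differed between the S phase and the mitotic genes. Each RefSeq promoter, 250 bases before to 50 bases after the start, was searched on both strands for an E2F motif (the letters TTCCCGC or the variants TTCGCGC and also TTGCCGC and also TTGGCGC), a CHR (TTTGAA or its variant TTCGAA) and the CCAAT box, spelled as named. The E2F letters were found in 12 of 20 S phase promoters (60.0%), in 4 of 21 mitotic promoters (19.0%) and in 12.4% of all 17274 promoters. The CHR letters were found in 17 of 21 mitotic promoters (81.0%), in 4 of 20 S phase promoters (20%) and in 17.7% of all. A CCAAT box was found in 18 mitotic (85.7%) and 14 S phase promoters (70.0%), against 39.6% of all. A CHR and a CCAAT box stood together in 16 of the 21 mitotic promoters (76.2%), in 4 of the 20 S phase promoters and in 7.53% of all. The CHR letters of the mitotic promoters lay on both sides of the start, from 188 bases before it to 40 after it (26 matches). Their median was 16.5 bases before the start. The CCAAT boxes of these promoters lay further out, at a median of 79.0 bases before the start (42 matches). The E2F letters of the S phase promoters lay at a median of 43.0 bases before the start (27 matches). In the 41 promoters, matches to the E2F letters overlapped each other in 5 (Cdc25a, Mcm3, Mcm5, Mcm6 and Mcm7) and a CCAAT box in 3 (Ccnb1, Ect2 and Mcm7). Ube2c had CCAAT boxes that overlapped each other. TTCGAA reads the same on both strands. A match is a run of letters, not a shown binding site.

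The 5 promoters below are printed because they carry these letters and because the starts they surround stand at the ends of the comparisons described further on. All are from RefSeq (GRCm38.p6), 5′ to 3′ along the gene's strand, with the motif letters of either strand in capitals. Mcm6 (chr1:128359656-128359955, minus strand) and Mcm5 (chr8:75109259-75109558, plus strand) encode subunits of the replicative helicase. Mcm6 had 5 E2F matches and 2 CCAAT boxes, and Mcm5 had 3 of each. Neither had a CHR.
Mcm6: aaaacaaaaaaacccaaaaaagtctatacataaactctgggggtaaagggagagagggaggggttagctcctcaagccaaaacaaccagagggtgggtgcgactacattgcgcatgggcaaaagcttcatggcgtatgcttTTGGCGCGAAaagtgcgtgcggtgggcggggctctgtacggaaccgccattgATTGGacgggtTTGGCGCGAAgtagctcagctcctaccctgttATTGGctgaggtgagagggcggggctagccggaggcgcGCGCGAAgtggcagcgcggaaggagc
Mcm5: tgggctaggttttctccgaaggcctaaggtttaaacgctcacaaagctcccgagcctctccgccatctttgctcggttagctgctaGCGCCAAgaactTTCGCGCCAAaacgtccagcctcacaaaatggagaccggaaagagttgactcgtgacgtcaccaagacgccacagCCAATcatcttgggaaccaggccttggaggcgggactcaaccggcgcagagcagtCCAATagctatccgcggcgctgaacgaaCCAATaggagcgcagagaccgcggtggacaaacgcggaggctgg
Plk1 (chr7:122159185-122159484, plus strand) and Aurka (chr2:172370521-172370820, minus strand) encode mitotic kinases, and Ccnb2 (chr9:70421505-70421804, minus strand) encodes cyclin B2. Plk1 had 1 CHR and 1 CCAAT box, Aurka 1 CHR and 2 CCAAT boxes, and Ccnb2 2 CHR matches and 3 CCAAT boxes. None of these had an E2F match.
Plk1: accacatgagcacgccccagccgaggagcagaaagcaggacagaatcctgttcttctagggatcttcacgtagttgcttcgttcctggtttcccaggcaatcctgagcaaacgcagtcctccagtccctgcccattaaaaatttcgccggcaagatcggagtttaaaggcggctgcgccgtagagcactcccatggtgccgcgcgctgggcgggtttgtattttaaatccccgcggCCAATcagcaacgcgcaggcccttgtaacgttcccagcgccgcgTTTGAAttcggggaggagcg
Aurka: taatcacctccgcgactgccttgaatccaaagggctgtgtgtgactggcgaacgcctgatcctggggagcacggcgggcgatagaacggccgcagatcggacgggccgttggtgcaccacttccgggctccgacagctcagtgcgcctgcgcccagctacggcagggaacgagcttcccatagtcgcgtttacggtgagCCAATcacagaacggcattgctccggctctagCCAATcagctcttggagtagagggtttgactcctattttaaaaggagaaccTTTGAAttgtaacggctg
Ccnb2: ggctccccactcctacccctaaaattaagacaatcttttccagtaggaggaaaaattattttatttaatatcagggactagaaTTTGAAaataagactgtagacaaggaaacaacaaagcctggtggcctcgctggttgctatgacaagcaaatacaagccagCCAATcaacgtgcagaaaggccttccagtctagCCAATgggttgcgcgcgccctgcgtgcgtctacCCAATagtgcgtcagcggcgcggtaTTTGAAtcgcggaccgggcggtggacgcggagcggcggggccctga

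The starts of replication and mitosis genes carried high H3K4me3 in these myoblasts. In 10000 cells, the median density over the 50 start windows was 22.8 times the genome mean, against 2.19 over all genes. No gene of the set fell below the median of all genes, and 22 of the 50 lay in the top 10% of all genes. The 41 genes with a listed start had a median of 26.3. For the other targets of the dual stainings, nearly every gene lay above the all-gene median, with Gmnn below it for CTCF and Ccne1 below it for H3K27ac and Pol2S2P. Their median density was 4.48 for CTCF (all genes 1.97), 3.42 for H3K27ac in 1000 cells (1.34) and 4.03 for Pol2S2P in the same cells (1.51). Along the gene, H3K4me3 peaked at the bin of the start, at 52.1 times the genome mean over the 41 genes against 15.9 over all. It was still 40.0 at 1 kb into the gene and was 3.99 at 2 kb before the start (all genes 3.11). CTCF had its highest value in the same bin (10.2 against 4.44). Pol2S2P was 5.28 at the start and 3.62 at 6 kb downstream, where all genes had 2.20 and 1.80. Some genes of the set end before 6 kb, as does Ube2c with 2974 bases.

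**Figure D1:**
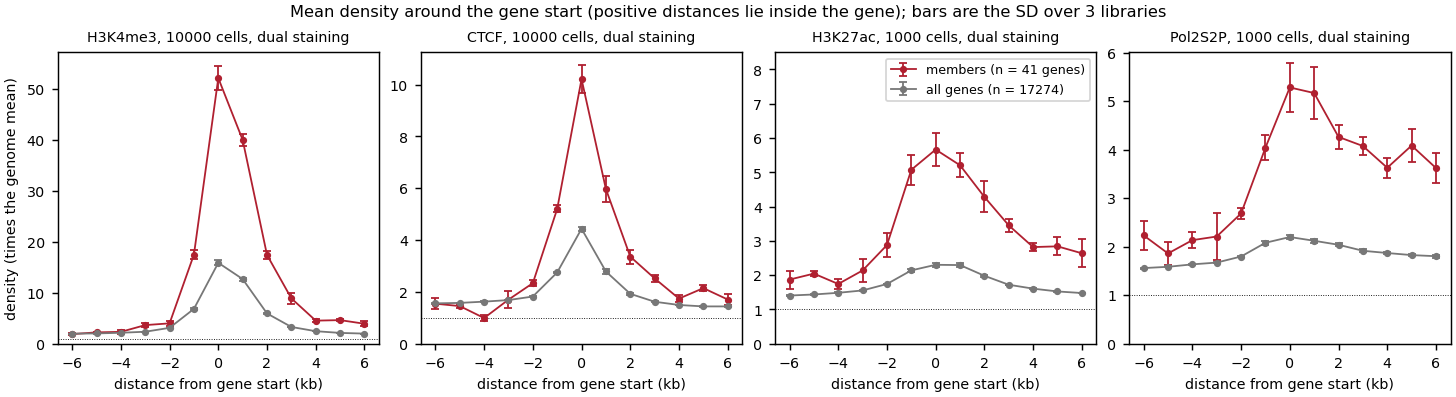
Mean density (times the genome mean) in 1 kb steps from 6 kb before to 6 kb after the gene start, for the 41 replication and mitosis genes with a listed start and for all 17274 such genes, in 4 dual-stained groups; points are means and bars the SD over 3 libraries. H3K4me3 of the 41 genes peaks at 52.1 in the start bin, and Pol2S2P falls from 5.28 there to 3.62 at 6 kb.

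Licensing and fork genes had a median H3K4me3 start density of 21.0 in 10000 cells. Cdc45, which joins the helicase at the origin, was highest, with 50.1, 42.4 and 48.3 in the 3 libraries (46.9 ± 4.04, SD, n = 3). Its start window shared bins with that of Ufd1. Pcna, the sliding clamp of the polymerases, followed with 37.9, 37.3 and 45.4 (40.2 ± 4.50). At the other end were Mcm10, a helicase activator, with 11.5, 9.33 and 9.44, and Gmnn with 4.83, 5.20 and 5.99. Each library of the 2 high genes exceeded each library of the 2 low ones by more than 3 times. Gmnn encodes geminin, the inhibitor of the licensing factor Cdt1. Its start was not listed, and its 2 ends taken apart had densities of 1.00 and 9.68. Among all 9 genes of this kind, the higher end ranged from 9.68 (Gmnn) to 39.4 (Kif20a).

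Nucleotide supply genes stood higher, with a median of 31.9. The ribonucleotide reductase subunits, which make deoxyribonucleotides, had 36.4, 33.6 and 39.6 (Rrm2) and 30.5, 37.6 and 37.4 (Rrm1). Thymidine kinase, Tk1, had 28.6, 32.8 and 24.7. Thymidylate synthase, Tyms, had 20.1, 24.0 and 24.0, and none of its libraries reached the lowest of Rrm1 or Rrm2. The Rrm2 and Tk1 starts were also rich in the other targets. Rrm2 had the highest CTCF density of the set in 10000 cells (10.0, 12.3 and 12.6), and Tk1 the highest H3K27ac in 1000 cells (11.6, 13.4 and 14.3). The Tk1 start window shared bins with that of Afmid.

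Among the transcription factors of the cycle (median 16.8), E2f3 was highest with 21.9, 19.5 and 21.4 and E2f2 lowest with 10.4, 11.5 and 9.44. These libraries did not overlap. E2f1 (21.9, 14.4 and 16.7) and Foxm1 (15.8, 15.3 and 16.9, both ends) lay between them, and the libraries of E2f1 overlapped those of both E2f3 and Foxm1. The place of Foxm1 rested on averaging its 2 ends. Taken apart, they had 30.3 and 1.70, and each library of the higher end exceeded each E2f3 library. The cyclins and their kinases and phosphatases had a median of 11.4. This value rested on Ccna2, Ccne2 and Cdc25c, which were averaged over both ends. It was 19.5 over the 6 genes with a listed start and 19.2 with the higher end of those 3, where the transcription factors had 17.7 and 19.3. The kinase Cdk1 (34.9, 34.9 and 40.3) and the phosphatase Cdc25a, which activates cyclin-dependent kinases (32.7, 32.0 and 29.1), were each above 29 in every library. Cyclin B2, Ccnb2 (8.17, 8.00 and 10.9), and cyclin E1, Ccne1 (10.4, 5.33 and 10.9), were at 11 or less in every library. Ccne1 also had the lowest H3K27ac and Pol2S2P start densities of the set in 1000 cells, 1.06 and 1.25.

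Mitotic kinases and checkpoint genes had a median of 26.3. Aurka, the spindle pole kinase, had the highest H3K4me3 start of all 50 genes, with 53.1, 49.3 and 58.8 (53.8 ± 4.78). Its start window shared bins with that of Cstf1. Mad2l1, of the spindle checkpoint, had 29.3, 35.2 and 34.9. The checkpoint kinases Bub1b (14.1, 12.8 and 12.7) and Bub1 (13.7, 12.8 and 12.3) were lowest and overlapped each other. In the spindle and cytokinesis group (median 24.8), the spindle motor Kif11 had 36.0, 44.8 and 35.2 and the cytokinetic scaffold Anln 39.4, 33.3 and 32.0. The midzone motor Kif23 had 13.7, 13.9 and 14.2 and Tpx2, which activates Aurora A, 12.6, 10.0 and 15.1 over both ends. All libraries of the first pair lay above all of the second. The place of Tpx2 rested on averaging its 2 ends, which had 23.2 and 1.90 when taken apart. The higher Tpx2 end (24.1, 17.6 and 28.0) also lay below every library of the first pair. The 2 chromosome structure genes were both high: Top2a, the topoisomerase that untangles chromosomes, had 35.7, 44.5 and 45.8, and Mki67, the coat protein of mitotic chromosomes, 40.1, 30.7 and 32.0.

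**Figure D2:**
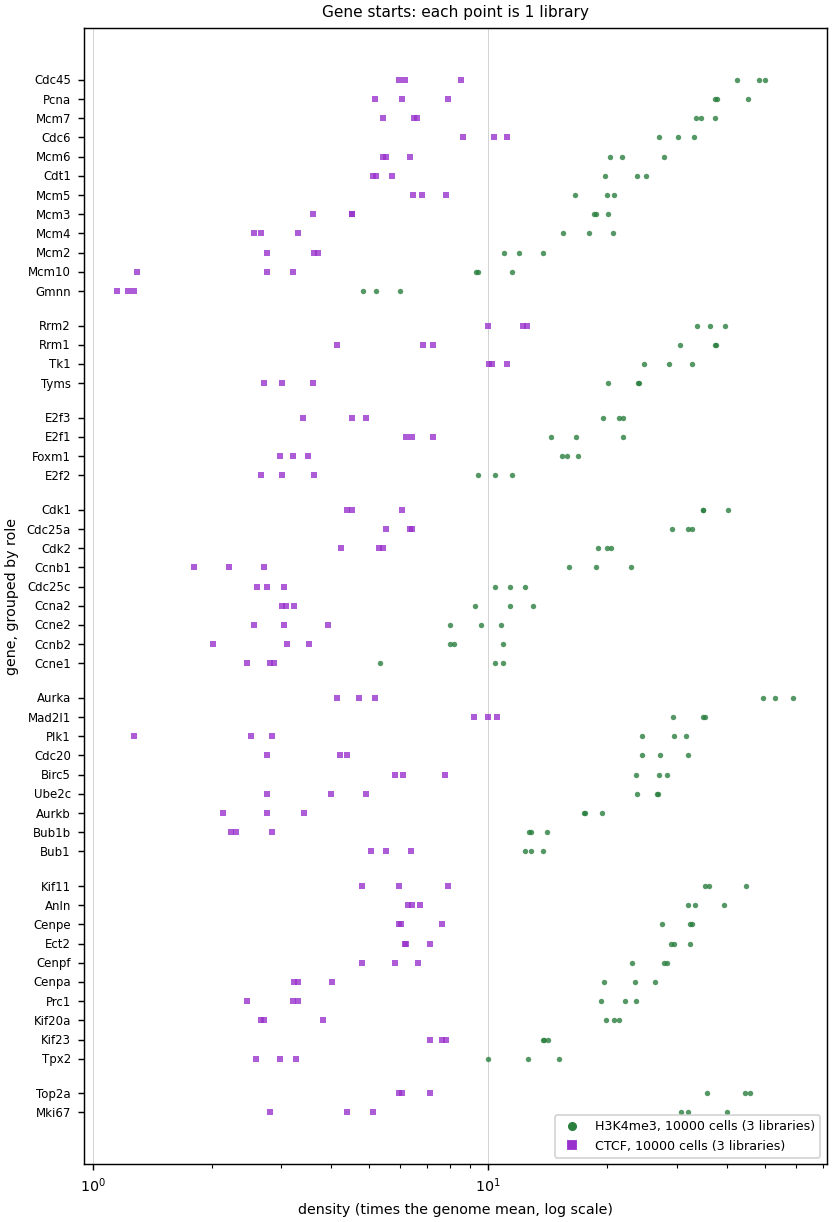
Start window density (times the genome mean, log scale) of H3K4me3 and CTCF for the 50 genes in dual-stained 10000 cells, grouped by role; each point is 1 library, with 3 libraries for each target. In every gene the 3 H3K4me3 points lie to the right of the 3 CTCF points, with the widest gap in Plk1 and the narrowest in Kif23.

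H3K4me3 exceeded CTCF at every start of the set when both were read from the same 10000 cells. By edgeR's quasi-likelihood test with Benjamini-Hochberg adjustment, 50 of 50 genes were higher in H3K4me3. This was the direction of most genes: 73.9% of the 12782 genes tested were higher and 10.3% lower. The median log2 fold change was 2.22 over the set and 1.59 over all genes tested. It was 2.42 for the mitotic and 2.00 for the S phase genes, a difference that was not tested. No libraries of the 2 targets overlapped in any of the 50 genes. How often this held over all genes was not counted, so it is not shown to set these genes apart. The densities and log2 fold changes are relative to each library's total, and H3K4me3 exceeded CTCF at most gene starts. With TMM factors, which set the median of all genes near 0 (0.020), the set's median was 0.65. Then 35 genes were higher and 2 lower (Bub1 and Kif23), and 49.6% of all calls were higher in place of 87.8%.

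Plk1, the Polo kinase, had the largest difference. Its start had H3K4me3 densities of 31.6, 24.5 and 29.4 and CTCF densities of 1.28, 2.51 and 2.85, a log2 fold change of 3.68 (SE 0.18, adjusted p = 1.42e-42). Aurka followed with CTCF densities of 4.15, 4.72 and 5.18 and a log2 fold change of 3.51 (SE 0.13, adjusted p = 1.32e-55). The promoters of both, printed above, hold a CHR and at least 1 CCAAT box. So do 16 of the 21 mitotic promoters, among them those of Kif23 and Bub1, which had the smallest differences. Cyclin B1, Ccnb1, came after Aurka, with 16.0, 18.7 and 22.9 for H3K4me3 and 1.81, 2.21 and 2.72 for CTCF (log2 fold change 3.10, SE 0.20, adjusted p = 1.14e-31). The smallest differences were those of genes with much CTCF for their H3K4me3. Kif23 had CTCF densities of 7.13, 7.83 and 7.64, and its log2 fold change was 0.88 (SE 0.17, adjusted p = 1.05e-06). Bub1 had CTCF densities of 6.38, 5.52 and 5.05 (log2 fold change 1.18, SE 0.18, adjusted p = 2.69e-09). E2f1 had 7.23, 6.43 and 6.21 (log2 fold change 1.38, SE 0.17, adjusted p = 1.66e-13). By role, the median log2 fold change ran from 1.98 (cyclins, kinases and phosphatases) to 2.88 (chromosome structure).

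In 1000 cells the picture was alike, on fewer reads. All 50 genes were again higher in H3K4me3, beside 79.4% of the 10416 genes tested (7.04% lower). The set's median log2 fold change was 2.32, against 1.79 over all genes. Aurka (log2 fold change 3.72, SE 0.21, adjusted p = 3.85e-32), Plk1 (log2 fold change 3.55, SE 0.26, adjusted p = 7.07e-25) and Anln (log2 fold change 3.31, SE 0.21, adjusted p = 1.04e-28) had the largest values. Those of Bub1 (log2 fold change 0.75, SE 0.30, adjusted p = 0.0157), Gmnn (log2 fold change 1.05, SE 0.39, adjusted p = 0.0107) and Mcm5 (log2 fold change 1.09, SE 0.23, adjusted p = 1.28e-05) were smallest. Bub1 was the one gene of the set whose libraries overlapped: its H3K4me3 densities were 4.39, 9.19 and 13.5, and its CTCF densities 6.85, 4.68 and 5.69. The share of all genes without overlap was not counted here either. Under TMM factors 25 genes were higher and 3 lower (Bub1, Kif23 and Mcm5), with a median of 0.54 over the set and 48.4% of all calls higher in place of 91.9%.

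H3K27ac and elongating polymerase, read from the same 1000 cells, were close to each other at the starts. Of 48 genes tested, 4 were higher in H3K27ac and 3 lower (10.1% and 11.0% of the 11206 genes tested). The median log2 fold change was -0.19 (all genes -0.073). Anln led the higher genes, with 13.4, 9.77 and 13.9 for H3K27ac and 5.92, 5.66 and 7.27 for Pol2S2P (log2 fold change 0.97, SE 0.19, adjusted p = 2.53e-05). Tk1 had 11.6, 13.4 and 14.3 against 7.36, 5.16 and 8.38 (log2 fold change 0.90, SE 0.19, adjusted p = 5.73e-05). The licensing factor Cdt1 had 12.9, 9.77 and 11.4 against 7.22, 7.16 and 4.27 (log2 fold change 0.87, SE 0.20, adjusted p = 0.000322). The libraries of the 2 targets did not overlap in Anln, Tk1 or Cdt1. Ect2, the exchange factor that starts the cleavage furrow, was higher by 0.68 (SE 0.21, adjusted p = 0.00902), with overlapping libraries. The lower genes were cyclin A2, Ccna2 (log2 fold change -1.03, SE 0.21, adjusted p = 3.84e-05), cyclin E2, Ccne2 (log2 fold change -0.90, SE 0.19, adjusted p = 7.86e-05), and the cytokinesis motor Kif20a (log2 fold change -0.70, SE 0.20, adjusted p = 0.00486). Mad2l1 (log2 fold change -0.73, SE 0.33, adjusted p = 0.0987) did not pass. None of the 3 lower genes had a listed start, so that their windows also took in the far gene end, and all 3 windows touched the bodies of other genes (Bbs7 and Exosc9 for Ccna2, Ints8 for Ccne2, Brd8 and Cdc23 for Kif20a). Of the higher genes, Anln and Tk1 had start windows that touched the body of a neighbour too (9530077C05Rik and Afmid). The part of any of these neighbours in the result was not tested. Among the 39 tested genes with a listed start, 4 were higher and 0 lower by this test. Summing both ends for every gene gave 1 higher and 18 lower.

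Gene interiors separated the 2 targets. In 1000 cells the median interior density of the set was 3.05 for Pol2S2P and 1.77 for H3K27ac, against 1.44 and 1.14 for all genes with an interior. No gene of the set lay below the all-gene median for Pol2S2P, and 17 of 46 were in the top 10%. H3K27ac was lower than Pol2S2P in 28 of the 39 interiors tested and higher in 2, beside 38.7% lower and 9.66% higher of 12440 genes. The median log2 fold change was -0.83, against -0.32 over all genes. Under TMM factors, which moved the all-gene median to -0.015, 20 were lower and 2 higher, the set's median was -0.53, and 51.5% of all calls were higher in place of 19.98%. The lower calls covered all roles: 17 of 21 mitotic genes were lower, among them 9 of 9 tested in the spindle and cytokinesis group, and 11 of 18 S phase genes.

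Kif20a had the largest difference, on few reads. Its H3K27ac counts alone were too few for the filter on low counts, so it was tested only because of its Pol2S2P counts. Its 4 interior bins held 1.26, 0.436 and 0.453 for H3K27ac (10 counts in all) and 2.89, 2.71 and 4.55 for Pol2S2P (52 counts), a log2 fold change of -2.18 (SE 0.49, adjusted p = 7.91e-05). Cdc25a had 1.29, 1.21 and 1.25 against 3.94, 2.56 and 3.22 (log2 fold change -1.38, SE 0.24, adjusted p = 4.37e-07). Tyms had 0.950, 1.34 and 0.966 against 2.62, 2.50 and 3.22 (log2 fold change -1.36, SE 0.18, adjusted p = 1.8e-11). In each of these genes the libraries of the 2 targets did not overlap. Cdk1 and Top2a combined a high polymerase density with a wide gap. Cdk1 had 6.66, 7.75 and 7.06 for Pol2S2P and 2.26, 3.09 and 3.13 for H3K27ac (log2 fold change -1.34, SE 0.17, adjusted p = 1.95e-12). Top2a had 6.19, 7.43 and 7.54 against 3.58, 3.29 and 3.00 (log2 fold change -1.09, SE 0.12, adjusted p = 1.75e-15).

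E2f2 and Cdc45 went the other way. E2f2 had interior H3K27ac densities of 4.43, 4.17 and 4.14 and Pol2S2P densities of 2.94, 2.62 and 2.60 (log2 fold change 0.64, SE 0.18, adjusted p = 0.00202). Cdc45 had 3.60, 3.78 and 3.69 against 2.75, 3.12 and 3.02 (log2 fold change 0.32, SE 0.14, adjusted p = 0.0413). In both, every H3K27ac library exceeded every Pol2S2P library. Tk1 was high in both targets, 8.94, 7.99 and 6.04 for H3K27ac and 7.46, 8.61 and 7.64 for Pol2S2P. Its libraries overlapped, and the test gave -0.037 (SE 0.19, adjusted p = 0.889). The highest interior polymerase density was that of the survivin gene Birc5, 10.8, 9.58 and 9.09 over only 2 bins, and the lowest that of Ccne1, 2.17, 1.67 and 0.988.

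**Figure D3:**
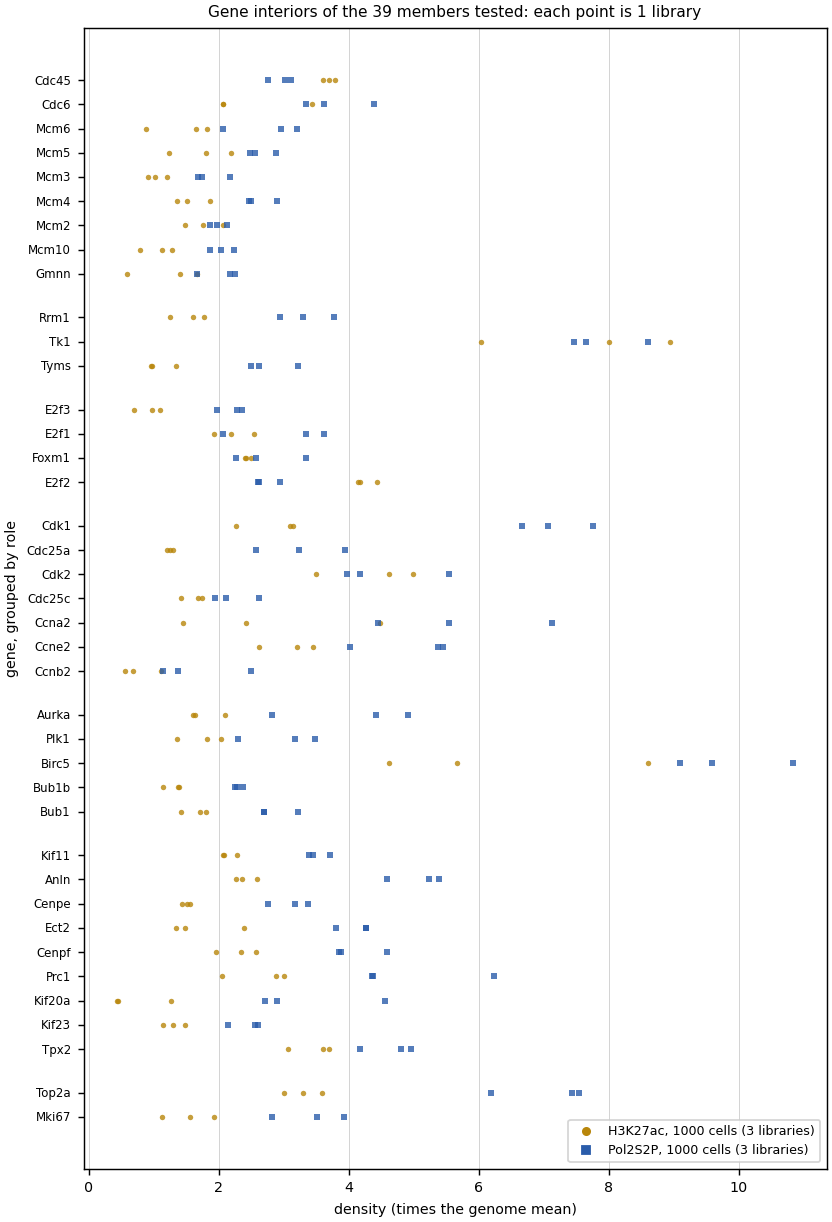
Interior density (times the genome mean) of H3K27ac and Pol2S2P in dual-stained 1000 cells for the 39 genes tested, grouped by role; each point is 1 library, with 3 libraries for each target. H3K27ac points lie left of the Pol2S2P points in most genes, while in Cdc45 and E2f2 all 3 H3K27ac points lie to the right.

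With 100 cells the interiors gave a like pattern in fewer testable genes, while few starts were called. In the interiors, 17 of 28 genes were lower in H3K27ac and 2 higher (29.0% and 8.81% of 9556). The median log2 fold change was -0.83 against -0.32. Top2a (log2 fold change -1.62, SE 0.23, adjusted p = 2.83e-08), E2f3 (log2 fold change -1.47, SE 0.21, adjusted p = 3.26e-08) and Aurka (log2 fold change -1.43, SE 0.46, adjusted p = 0.00948) had the largest differences. E2f2 (log2 fold change 1.05, SE 0.34, adjusted p = 0.0105) and Cdc45 (log2 fold change 0.71, SE 0.25, adjusted p = 0.0195) were again the higher ones, and Foxm1 came next (log2 fold change 0.19, SE 0.43, adjusted p = 0.76). Under TMM factors 9 were lower and 2 higher, with a median of -0.51, and 56.7% of all calls were higher in place of 23.3%. At the starts, 27 genes could be tested. Anln was higher (log2 fold change 1.00, SE 0.35, adjusted p = 0.0412) with overlapping libraries and Kif20a lower (log2 fold change -1.20, SE 0.39, adjusted p = 0.0257), beside 11.0% and 6.63% of 4211 genes. The next genes were Birc5 (log2 fold change 0.96, SE 0.35, adjusted p = 0.0501) and Cdk1 (log2 fold change 0.86, SE 0.37, adjusted p = 0.101) on the higher side, and Mcm6 (log2 fold change -0.97, SE 0.48, adjusted p = 0.158) and Ccne2 (log2 fold change -0.77, SE 0.30, adjusted p = 0.0676) on the lower. Same-numbered libraries of the 2 targets deviated together here, and a fit with the replicate number as a block called 4 genes, 2 in each direction. DESeq2 called 0, as did edgeR without H3K27ac replicate 1 or without Pol2S2P replicate 2.

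H3K4me3 was higher with more cells at 6 starts, 5 of them of S phase genes. Between 10000 and 1000 cells, 6 of 50 genes were higher in 10000 cells and 0 lower, by edgeR's test, beside 5.17% and 0.139% of 10065 genes. Gmnn had 4.83, 5.20 and 5.99 in 10000 cells and 2.92, 2.60 and 2.25 in 1000 cells (log2 fold change 1.05, SE 0.31, adjusted p = 0.0247). Mcm6 had 27.9, 20.3 and 21.8 against 13.9, 10.8 and 14.0 (log2 fold change 0.86, SE 0.20, adjusted p = 0.00398). Tyms had 20.1, 24.0 and 24.0 against 14.6, 11.99 and 15.0 (log2 fold change 0.74, SE 0.20, adjusted p = 0.0125). The libraries of the 2 cell numbers did not overlap in any of these, nor in the licensing loader Cdc6 (0.55, adjusted p = 0.0332), Ect2 (0.51, adjusted p = 0.0475) and Pcna (0.46, adjusted p = 0.041). At the other end, Birc5 (log2 fold change -0.19, SE 0.16, adjusted p = 0.527), Tpx2 (log2 fold change -0.16, SE 0.17, adjusted p = 0.626) and Kif23 (log2 fold change -0.14, SE 0.22, adjusted p = 0.753) did not pass. The median log2 fold change was 0.38 for the 23 S phase genes, 0.090 for the 27 mitotic genes and 0.19 for all genes tested, and the difference between the 2 gene groups was not tested.

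These calls rested on few libraries and on the scaling. No gene of the set was called under TMM factors, which moved the all-gene median to -0.0077 and the share of all calls that were higher from 97.4% to 41.0%. The count was 0 without replicate 2 of the 1000-cell libraries, 1 without replicate 3 of the 10000-cell libraries, and 2 without either of the other 10000-cell libraries or without replicate 3 of 1000 cells.

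**Figure D4:**
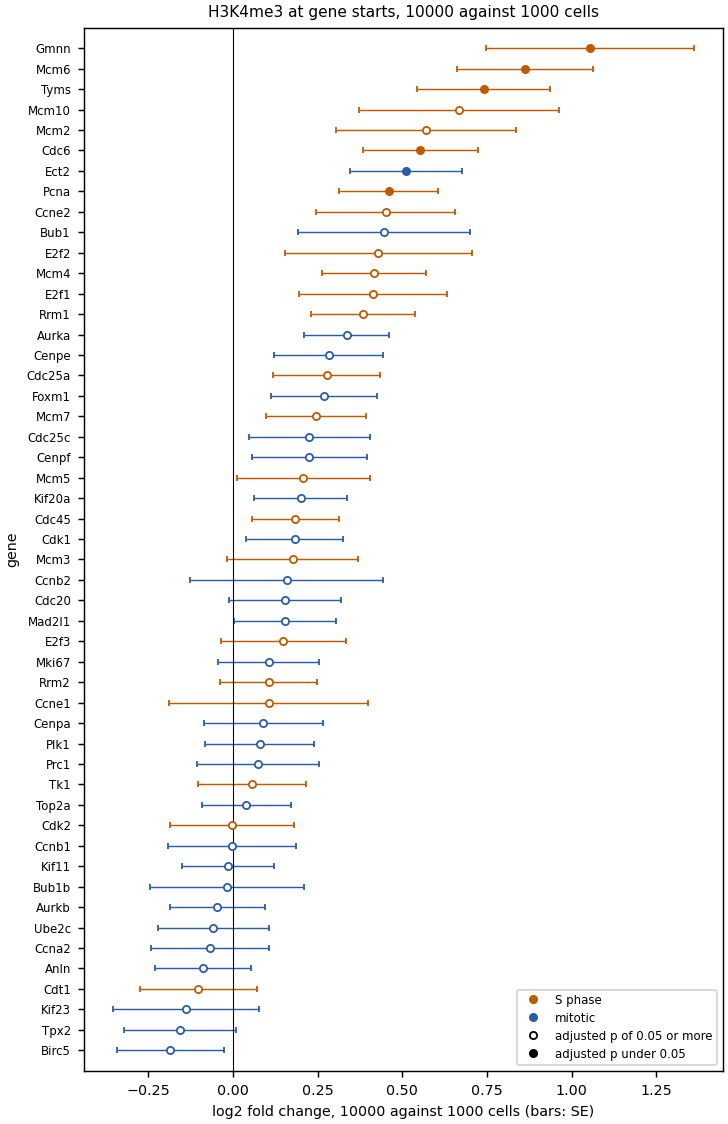
Log2 fold change of H3K4me3 start counts, 10000 against 1000 dual-stained cells (3 libraries each), for the 50 genes ordered by value and coloured as S phase or mitotic; bars are the SE and filled points have an adjusted p under 0.05. Gmnn, Mcm6 and Tyms are at the top, and 5 of the 6 filled points are S phase genes.

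The other targets gave 1 call or none between cell numbers. CTCF starts differed in 1 of 50 genes, E2f1, with 7.23, 6.43 and 6.21 in 10000 and 4.06, 2.42 and 3.62 in 1000 cells (log2 fold change 1.02, SE 0.23, adjusted p = 0.0331), beside 0.133% of 13500 genes higher and 0.00741% lower. E2f1 was called in no fit that left out 1 library, except the one without CTCF replicate 1 of 1000 cells, and not under TMM factors or by DESeq2. Anln (log2 fold change 0.80, SE 0.22, adjusted p = 0.0825) and E2f3 (log2 fold change 0.72, SE 0.28, adjusted p = 0.233) came next, while Cenpa, the centromeric histone (log2 fold change -0.31, SE 0.25, adjusted p = 0.627), Tpx2 (-0.16) and Mcm5 (-0.10) had the lowest values. H3K27ac starts in 1000 against 100 cells gave 0 calls among 42 genes by edgeR (0.0% of 7728 genes) and 0 by DESeq2. At an unadjusted p under 0.05 there were 4 of the 42, beside 6.15% of all genes tested. The values ran from -1.02 (SE 0.37, adjusted p = 0.742) for Mcm2, -0.68 for Cdk1 and -0.53 for the kinetochore gene Cenpf to 0.60 for E2f1, 0.60 for the phosphatase gene Cdc25c and 0.83 (SE 0.33, adjusted p = 0.751) for Kif20a. Pol2S2P interiors in 1000 against 100 cells gave 0 calls among 38 genes by edgeR (0.0168% of 11870) and 0 by DESeq2. At an unadjusted p under 0.05 there were 5 of the 38, beside 6.52% of all genes tested. There, Mcm2 (log2 fold change -0.45, SE 0.32, adjusted p = 0.853), Tk1 (-0.31) and Rrm1 (-0.23) were lowest, and Ccna2 (log2 fold change 0.60, SE 0.45, adjusted p = 0.871), E2f2 (0.53) and Bub1 (0.53) highest. The standard errors, up to 0.45 among the named genes (Ccna2), set what was detectable at these depths.

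Staining alone or with a second target made no called difference for CTCF. At 10000 cells, 0 of 50 starts differed between dual and single staining by edgeR (0.165% of 15726 genes) and 0 by DESeq2. At an unadjusted p under 0.05 there were 7 of the 50, beside 9.68% of all genes tested. Ccnb1 (log2 fold change 0.88, SE 0.34, adjusted p = 0.315), Mcm3 (log2 fold change 0.52, SE 0.23, adjusted p = 0.421) and Kif11 (0.45) had the highest values and Cdt1 (log2 fold change -0.53, SE 0.17, adjusted p = 0.171), Cdc25c (-0.20) and Mcm10 (-0.19) the lowest.

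Elongating polymerase did differ. In the interiors, Pol2S2P was lower in dual staining with H3K27ac than in single staining in 16 of 43 genes and higher in 0, beside 13.8% lower and 11.1% higher of 13086 genes. The median log2 fold change was -0.41, against -0.059 over all genes tested. Of the 16, 12 were S phase genes (of 20 tested, median -0.63) and 4 mitotic (Ect2, Top2a, Cdk1 and Ccna2, of 23 tested, median -0.33). The difference between the 2 gene groups was not tested. The genes called included 5 of the helicase subunits (Mcm2, Mcm3, Mcm4, Mcm5 and Mcm6) and the helicase partner Cdc45.

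The single staining had 2 libraries. They are separate from the dual-stained ones, and the labels do not say that both kinds were prepared together. A difference of staining and a difference of preparation cannot be told apart. Tk1 had 7.46, 8.61 and 7.64 in dual and 14.3 and 16.9 in single staining (log2 fold change -0.97, SE 0.18, adjusted p = 7.26e-06). Mcm4 had 2.89, 2.50 and 2.46 against 3.98 and 5.88 (log2 fold change -0.87, SE 0.25, adjusted p = 0.00537). Mcm3 had 1.68, 1.74 and 2.17 against 3.17 and 3.60 (log2 fold change -0.85, SE 0.26, adjusted p = 0.00884). In all 16 genes called, each single-stained library exceeded each dual-stained one. Rrm2 had the largest value, -1.69 (SE 0.51, adjusted p = 0.00856), from a single bin with 18 counts in dual and 34 in single staining. The dual-stained counts alone were too few for the filter on low counts, so this bin was tested only because of its single-stained counts. At the other end were E2f1 (log2 fold change 0.99, SE 0.46, adjusted p = 0.103), Bub1 (log2 fold change 0.24, SE 0.18, adjusted p = 0.322) and Birc5 (log2 fold change 0.14, SE 0.34, adjusted p = 0.807). Leaving out 1 library lowered the count to 8 (without single replicate 2), 10 (without single replicate 1) or 10 (without dual replicate 1). Without single replicate 2, Mcm4 had a log2 fold change of -0.60 (adjusted p = 0.185) and Rrm2 an adjusted p of 0.231. TMM factors gave 14 lower, with 57.1% of all calls higher in place of 44.6%.

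**Figure D5:**
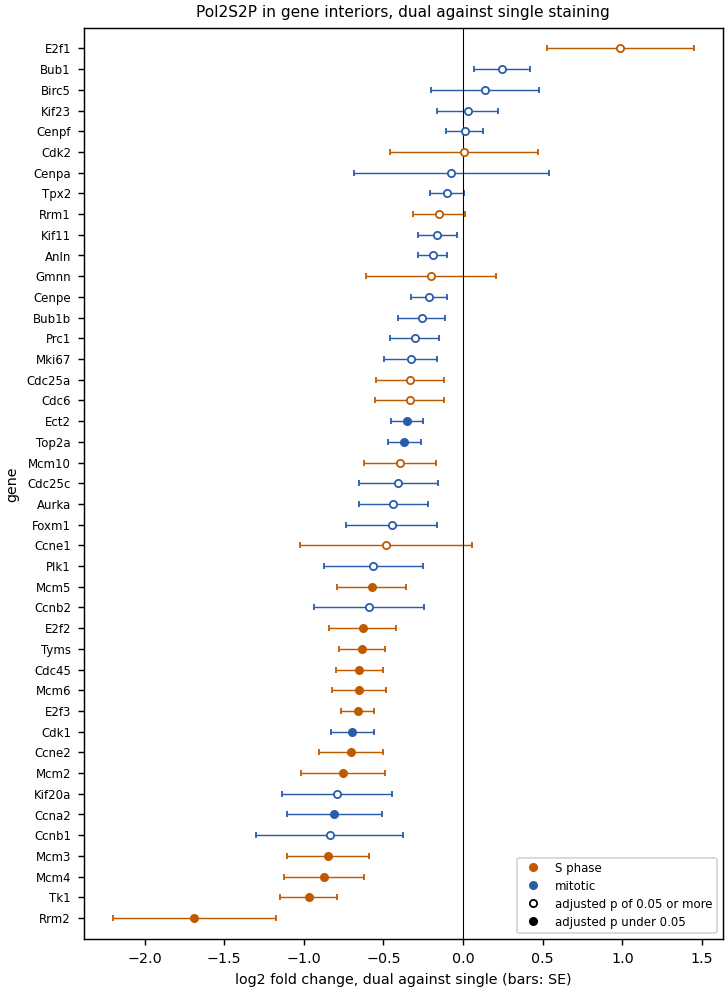
Log2 fold change of Pol2S2P interior counts, dual staining (3 libraries) against single staining (2 libraries) in 1000 cells, for the 43 genes tested, ordered by value and coloured as S phase or mitotic; bars are the SE and filled points have an adjusted p under 0.05. All 16 filled points lie below 0, and 12 of them are S phase genes.

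At the starts, compared without a test, Pol2S2P densities were also lower in dual staining. In 41 of 50 genes every dual library lay below every single library, as it did in 52.9% of 16044 genes with at least 20 counts. This held for 21 of 23 S phase and 20 of 27 mitotic genes, and in 0 genes did it hold the other way (5.48% of all). The median log2 ratio of the group means was -0.72 over the set (S phase -0.97, mitotic -0.61) and -0.59 over all genes. Tk1 was highest in single staining with 16.9 and 21.2, against 7.36, 5.16 and 8.38 in dual. Mcm6 had 17.2 and 13.2 against 6.64, 3.83 and 3.64, and Rrm2 13.4 and 13.8 against 6.06, 5.50 and 5.06. Bub1b was lowest, with 1.64 and 1.30 against 1.30, 1.67 and 2.37, and its libraries overlapped.

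Across genes of the set, the targets ranked the starts in a related order. Over the 41 genes with a listed start, Spearman's rho was 0.87 between H3K27ac and Pol2S2P start densities, 0.63 between H3K4me3 and Pol2S2P, 0.57 between H3K4me3 and H3K27ac, and 0.49 between H3K4me3 and CTCF. Between H3K4me3 at the start and Pol2S2P in the interior it was 0.65 over 37 genes. These are descriptions across genes, which are not independent replicates, and each dual-stained pair shares its cells. Promoters of the set were also richer in CpG: a median of 24.0 CpG per promoter (from 8 to 48) against 14.0 over all promoters, at nearly the same GC content (57.7% and 56.3%).

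Further genes of the 2 pathways, from lists of 42 replication and 47 mitosis genes, had lower but still high H3K4me3 starts. The median density was 14.9 and 17.7. Dtl, a licensing regulator, and the origin gene Orc4 were highest in the first list (46.9 and 44.1), and the fork gene Timeless and Gins4 lowest (1.81 and 3.41). In the second, the condensin gene Ncaph2 and Fbxo5, an inhibitor of the anaphase-promoting complex, were highest (59.3 and 59.0), and the cohesion protector Sgo2a and the motor Kif2c lowest (1.66 and 4.20). Genes of cell cycle exit and D cyclins (13) had a median of 11.4, from 0.0556 for Cdkn1c and 2.54 for Ccnd3 to 39.8 for Cdkn1b and 57.0 for Cdkn2c. Relatives of these genes that act in germ cells had low starts: 16 of 19 meiotic and germline cell cycle genes lay below the all-gene median, and the list's median was 0.912, with Msh5 highest at 17.4.

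The same tests were made on these lists. H3K4me3 exceeded CTCF at 10000 cells in 39 of 41 other replication genes (median log2 fold change 1.75) and 46 of 46 other mitosis genes (2.43). Of the 19 germline genes only 7 had enough counts to be tested, with 2 higher and 3 lower. The CTCF libraries were deeper (4066700 to 5241420 counts, against 1417049 to 1973692 for H3K4me3). A gene with little H3K4me3 could therefore enter the test by its CTCF reads. The part of this in the germline counts was not tested. In the interiors of 1000 cells, H3K27ac was below Pol2S2P in 28 of 34 other replication genes (median -0.75) and 32 of 41 other mitosis genes (-0.68). The same held for 4 of 8 exit genes (-0.30) and 4 of 14 germline genes (-0.24), and for 38.7% of all genes tested. Rfc4, of the clamp loader, and Orc3 had the lowest values of the first list (-1.41 and -1.40), and Tacc3 and Zwint, of the spindle and kinetochore, those of the second (-1.45 and -1.34). One other replication gene was higher, the primase partner Pola2 (0.57). In dual against single staining, Pol2S2P interiors were lower in 12 of 38 other replication genes (median -0.32), 11 of 42 other mitosis genes (-0.27) and 4 of 10 exit genes. Of 16 germline genes, 6 were higher and 0 lower (median 0.56), led by Sycp2 (1.62) and Tex11 (0.94). Over all genes tested, 13.8% were lower and 11.1% higher.

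Of the markers of the labelled cell type, 8 of 10 myoblast genes lay above the all-gene median in H3K4me3 at 10000 cells, led by Vim (74.8) and Myf5 (39.4), while Myod1 (1.05) and Pax7 (0.178) lay below it. Of the markers of other tissues, 7 of 8 blood, 8 of 8 liver and 7 of 8 neuron genes lay below, with list medians of 0.758, 0.818 and 0.607.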

How the data were processed

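Deposited values were raw counts of reads per 1 kb bin of GRCm38, made by the authors from HISAT2 2.1.0 alignments and deepTools 3.3.1, per the submitters' processing notes; duplicate and barcode handling: not given in the sources used here. Only the 28 columns that match a sample by name were used. A further 4 match none, and 6 samples (H3K4me3, H3K27me3 and H3K27ac in 100 cells, primary antibody) were not analysed here. Library size was the count on autosomes and X without 9 bins above 50 times the genome mean in every group. Gene spans and starts came from RefSeq tables (GRCm38.p6).

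Start and interior counts were compared in 12 comparisons with edgeR 4.0.16 quasi-likelihood tests (R 4.3.3) on the 2 groups compared, with filterByExpr, library sizes without further scaling, and Benjamini-Hochberg adjustment over all genes tested at 0.05; the SE is the log2 fold change divided by the square root of F. Alternatives were TMM factors, DESeq2 1.42.0, no filter, 1 kb windows, both ends summed, interiors 5 kb inside, a replicate block, and each library left out. Library totals ranged from 719766 to 6653298. Replicates differed beyond sampling noise or near it (chi-square per degree of freedom from 1.03 to 1.78), and none were merged. Same-numbered libraries deviated together in H3K27ac against Pol2S2P interiors (correlations from 0.132 to 0.150 in 1000 and 0.124 to 0.135 in 100 cells) and 100-cell starts (0.107 to 0.170), so the block is given there where it moves a count. On simulated data, 65.5% (H3K4me3 against CTCF starts, 10000 cells, 12699 genes) and 81.5% (H3K27ac against Pol2S2P interiors, 1000 cells, 12404 genes) of 200 genes changed 2-fold were recovered, with 8.39% and 4.68% false calls. The simulation assumed the same dispersion for every gene, drew the changed genes from those with higher mean counts, and raised as many as it lowered. It had no pairing of libraries and no shift of most genes, so these rates need not hold for the real comparisons. Named genes are the 2 highest and 2 lowest of each role by H3K4me3 (all of roles of 4 or fewer), the 3 largest and 3 smallest log2 fold changes of each comparison, and calls against the main direction; Cdk1 and Top2a interiors, Tk1 and the single-stained starts were added after their values were seen. The genes, lists and tests were chosen with earlier results of these data known.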

Additional observations from a re-analysis of the deposited data

How the results depend on the processing

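Other scalings, tools, filters and windows, changed 1 at a time, gave 2074 alternative values for the 181 calls on single genes. Of these, 1765 kept direction and side of the threshold, 271 kept the direction but missed the threshold, and 38 reversed. For H3K4me3 against CTCF in 10000 cells, DESeq2 called 31 of the 50 genes. In 1000 cells TMM factors called 28 and DESeq2 22. All reversals came from these 2 scalings, which centre the bulk of genes at 0. In 10000 cells the log2 fold changes that reversed under TMM factors were Bub1 -0.39, E2f1 -0.19, Kif23 -0.69, Mcm5 -0.16 and Tk1 -0.090. Under DESeq2 they were Bub1 -0.41, Ccne2 -0.024, Cdc6 -0.016, E2f1 -0.20, Kif23 -0.71, Mcm5 -0.17 and Tk1 -0.12. In 1000 cells they were, under TMM factors, Bub1 -1.02, Ccne2 -0.41, Cdc25c -0.030, Cdc6 -0.40, E2f2 -0.24, Gmnn -0.72, Kif23 -0.58, Mad2l1 -0.014, Mcm10 -0.17, Mcm2 -0.48, Mcm5 -0.69, Mcm6 -0.48 and Tk1 -0.18. Under DESeq2 they were Bub1 -1.07, Ccne2 -0.41, Cdc25c -0.036, Cdc6 -0.42, E2f2 -0.24, Gmnn -0.74, Kif23 -0.59, Mad2l1 -0.012, Mcm10 -0.16, Mcm2 -0.52, Mcm5 -0.71, Mcm6 -0.49 and Tk1 -0.17.

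For H3K27ac against Pol2S2P, summing both ends gave 19 calls at 1000-cell starts in place of 7, and DESeq2 18 in 1000-cell interiors in place of 30. In 100 cells the starts gave 0 calls with DESeq2 and 0 with no filter on low counts, in place of 2, and the interiors gave 11 with TMM factors and 6 with DESeq2, in place of 19. H3K4me3 in 10000 against 1000 cells gave 0 calls with TMM factors, 0 with DESeq2 (which gave no adjusted p for 35 of the 50 genes) and 3 with no filter, in place of 6. CTCF in 10000 against 1000 cells gave 0 with TMM factors, 0 with DESeq2, 0 with both ends summed and 2 with a window of 1 kb. Pol2S2P interiors in dual against single staining gave 5 with DESeq2 (no adjusted p for 12 of 43) and 7 with bins over 5 kb inside both ends (30 genes tested), in place of 16. Other than by fewer genes tested, the cause was not tested.

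The replicate number as a block gave 4 calls at 100-cell starts of H3K27ac against Pol2S2P, and 2 for H3K4me3 in 10000 against 1000 cells, where same-numbered libraries shared only a number (correlations of their deviations from -0.015 to 0.017). There the block lost Gmnn, Cdc6, Ect2 and Pcna, and in Pol2S2P dual against single staining, also unpaired, it lost E2f2, Mcm2 and Mcm5. It ended no call in a comparison of 2 targets. In each comparison of 2 targets, all same-numbered pairs correlated positively and above all other pairs.

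Leaving out 1 library at a time gave from 50 to 50 calls and from 49 to 50 for H3K4me3 against CTCF in 10000 and 1000 cells. For H3K27ac against Pol2S2P it gave from 6 to 8 at 1000-cell starts, 25 to 29 in 1000-cell interiors, 0 to 3 at 100-cell starts and 13 to 19 in 100-cell interiors. For cell number it gave from 0 to 6 (H3K4me3), 0 to 1 (CTCF), 0 to 0 (H3K27ac) and 0 to 0 (Pol2S2P). For dual against single staining it gave from 0 to 0 (CTCF) and 8 to 16 (Pol2S2P interiors); where 1 single-stained library was left, it is assumed to vary like the dual ones.

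Over all genes tested, the counts of calls that moved over 1.5 times were these. H3K4me3 against CTCF in 1000 cells went from 9008 to 5956 (TMM factors) and 4911 (DESeq2). H3K27ac against Pol2S2P at 1000-cell starts went from 2361 to 1105 (DESeq2, with 62.4% of calls higher in place of 47.7%), 1449 (1 kb windows) and 4117 (both ends), and at 100-cell starts from 741 to 424, 437 and 1349. With DESeq2, 1000-cell interiors went from 6017 to 3659, 100-cell interiors from 3614 to 1992, and Pol2S2P interiors in dual against single staining from 3258 to 1382 (63.0% higher). H3K4me3 in 10000 against 1000 cells went from 534 to 105 (TMM factors), 2 (DESeq2), 347 (no filter), 320 (1 kb windows) and 225 (replicate block). CTCF in 10000 against 1000 cells went from 19, of which 94.7% were higher, to 1 (TMM factors), 1 (DESeq2), 34 (no filter), 49 (1 kb windows), 9 (both ends) and 38 (replicate block). CTCF in dual against single staining went from 26 to 17 (TMM factors, with 64.7% higher in place of 84.6%), 0 (DESeq2), 2 (1 kb windows), 8 (both ends) and 14 (replicate block). Pol2S2P interiors in 1000 against 100 cells went from 2 to 1 with DESeq2 and with bins over 5 kb inside. At the 100-cell starts, 27 of 50 genes had enough counts to be tested.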
